A study of Mus musculus with 15 samples.

Results

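The matrix-binding integrins described here were 10 genes, chosen by symbol from the rows of the raw count table of a mouse lung fibrosis series. They were Itgb1, Itgb3 and Itgb5, which encode beta subunits, and Itga1, Itga2, Itga3, Itga5, Itga6, Itga9 and Itga11, which encode alpha subunits. The table held 33340 genes, of which 17457 passed a filter on low counts, and all 10 integrin genes were among them. RNA-seq of polyA RNA had been carried out on whole lungs of male C57BL/6 mice, 10 to 12 weeks old by the study's methods, after 5 U/kg of bleomycin into the trachea, a DNA-damaging drug that injures the alveoli and is followed by scarring. Days 0, 7 and 14 had 4 libraries each, and day 21 had 3. These numbers follow the sample titles, whereas the series' design text names 3 replicates a day. The day 0 libraries were titled as controls, and the labels gave no vehicle. Day 0 replicate 4 carried a treatment label naming the drug and was kept in day 0 by its title. The labels did not say that each library came from its own animal, so p-values measure the spread between libraries only. No gene was targeted in these mice, and each library mixed all cell types of the lung.

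Integrins are receptors made of an alpha and a beta subunit that span the cell membrane and tie the actin skeleton to the matrix outside. The beta subunit reaches the skeleton through talin and kindlin, while the alpha subunit largely sets the ligand. Beta 1 pairs with every alpha subunit described here, giving collagen receptors with alpha 1, 2 and 11, laminin receptors with alpha 3 and 6, the fibronectin receptor with alpha 5, and a receptor for tenascin-C and other ligands with alpha 9. Beta 3 and beta 5 pair with alpha v, giving receptors for vitronectin and related proteins, and alpha v integrins can also release active TGF-beta from its latent complex. In scarring lung, fibroblasts, macrophages, epithelium and endothelium each carry their own set.

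Libraries held 15652008 to 18020661 counts, of which 29190 to 58767 fell on the 10 genes. Levels are given as CPM, read counts scaled to a common library size after adjustment by the trimmed mean of M-values, and listed in replicate order. Changed genes are those past both a fold of 1.5 and an adjusted p of 0.05 (Benjamini-Hochberg) in edgeR's quasi-likelihood test, fitted to all 17457 genes together. Mitochondrial genes took 2.28% and 2.31% of counts in day 0 replicates 1 and 2 against 4.22% and 4.04% in replicates 3 and 4, 2.03% to 2.15% at day 7, 2.1% in day 14 replicate 1 against 3.74% to 4.14% in the other day 14 libraries, and 2.66% to 4.01% at day 21. This share moved with the days in part.

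Against day 0, Itga3 was called higher on each later day, Itga5, Itgb3 and Itgb5 at days 14 and 21, and Itga11 at day 21, while Itga1 was called lower at day 14. At day 7, 1 of the 10 genes was called changed, Itga3, which was higher; of all genes tested, 16.1% were changed and 8.78% were higher. At day 14, 5 were changed, against 23.1% of all genes: Itga3, Itga5, Itgb3 and Itgb5 were higher, against 12% of all genes, and Itga1 was lower, against 11.2%. At day 21, 5 were higher, against 12.4% of all genes higher and 22.5% changed: Itga3, Itga5, Itga11, Itgb3 and Itgb5. The median log2 fold change of the 10 genes against day 0 was 0.38 at day 7, 0.54 at day 14 and 0.63 at day 21, while that of all genes was 0.01, 0.02 and 0.02. These 3 comparisons share the day 0 libraries.

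**Figure D1:**
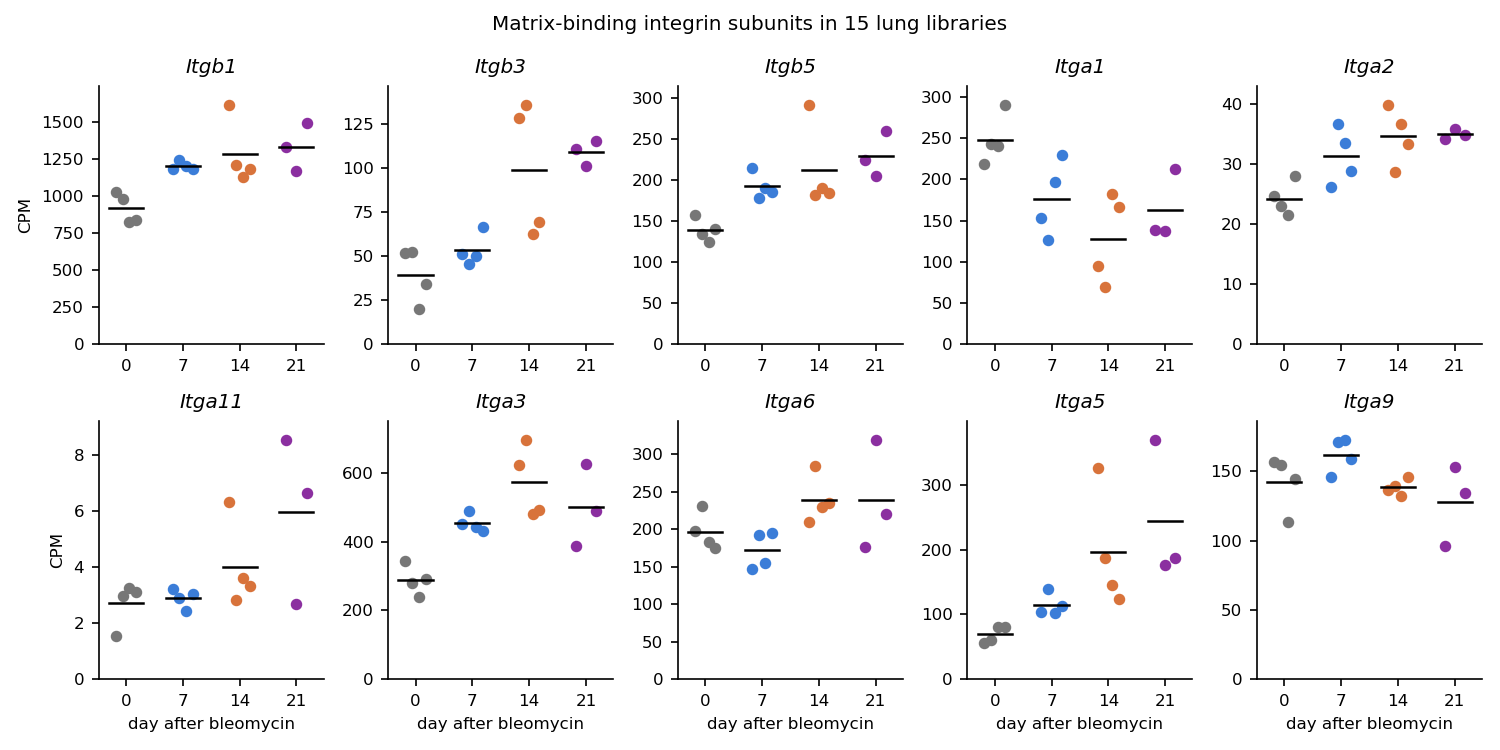
CPM (y axis, from 0) of the 10 integrin genes by day after bleomycin (x axis), with 1 point per library and a black bar at the mean of each day. Itga5 ran from 55.7 to 80.8 at day 0 and from 124 to 327 at day 14, while Itga1 ran from 218 to 290.2 at day 0 and from 69.9 to 182 at day 14.

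Of the 3 beta subunit genes of the set, Itgb3 and Itgb5 were called higher at days 14 and 21, and Itgb1 was not called. Itgb3 (ENSMUSG00000020689, GRCm38 chr11:104608000-104670476, plus strand), the partner of alpha v and, on platelets, of alpha IIb, was at 51.6, 52.5, 20.0 and 34.0 CPM at day 0. It was at 51.4, 45.8, 50.1 and 66.5 CPM at day 7 and at 128, 136, 62.8 and 69.2 CPM at day 14. At day 21 it was at 111, 101 and 115 CPM. Days 0 and 7 overlapped, whereas every library of days 14 and 21 was above every library of day 0. Within day 14 the libraries fell into a higher and a lower pair, while the 3 of day 21 lay close together. Itgb3 was 1.35-fold day 0 at day 7 (log2 fold change 0.44 ± 0.28 SE, adjusted p = 0.277), 2.51-fold at day 14 (1.32 ± 0.29, adjusted p = 0.00250) and 2.76-fold at day 21 (1.46 ± 0.30, adjusted p = 0.00213).

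The lowest Itgb3 levels of day 0 were in the 2 libraries with the higher mitochondrial share. Among libraries with a share over 3.5%, the log2 fold change at day 14 was 1.72 (adjusted p = 0.0189), and among those under 2.5% that at day 7 was 0.02 (adjusted p = 0.936). Platelet and megakaryocyte markers (Pf4, Ppbp, Gp9, Gp1bb and Itga2b, all above 0 in every library) summed to 44.9 to 76.3 CPM at day 0, 32.9 to 48.0 at day 7, 25.8 to 49.8 at day 14 and 38.4 to 72.0 at day 21. Against day 0, 2 of these 5 markers were called lower at day 7 and 3 at day 14, and none higher, while at day 21 Pf4 was higher and Ppbp lower. At day 14 Itga2b, the platelet partner of beta 3, was lower than at day 0 by 0.67 on the log2 scale (SE 0.22, adjusted p = 0.0284). It went from 17.4 ± 3.51 to 10.9 ± 2.56 CPM (SD, n = 4 each). Among fits that left out 1 library, the call was lost without day 0 replicate 1 or 2 (adjusted p = 0.0706 and 0.0582) or day 14 replicate 2 or 4 (0.0585 and 0.0791). At day 21 Itga2b differed from day 0 by −0.09 on the log2 scale (adjusted p = 0.795). The part of platelets in the Itgb3 level was not tested. Macrophage markers (Cd68, Adgre1, Marco and Mrc1, all above 0 in every library) summed to 181 to 213 CPM at day 0 and 327 to 478 at day 7. They summed to 1094, 946, 418 and 430.4 CPM in the day 14 libraries in replicate order, highest in the same pair as Itgb3, and to 462 to 957 CPM at day 21. Of these 4 markers, 2, 4 and 3 were higher at days 7, 14 and 21, and their part in the Itgb3 level was not tested.

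Itgb5 (ENSMUSG00000022817, chr16:33829665-33949338, plus strand), another partner of alpha v, was at 158, 135, 125 and 140.1 CPM at day 0, and at 214, 178, 190.4 and 186 CPM at day 7. At day 14 it was at 291, 182, 191 and 185 CPM, and at day 21 at 224, 205 and 259.8 CPM. No library of a later day reached down to the highest of day 0, and day 14 replicate 1 stood above the other 3 of its day. Against day 0 its log2 fold change was 0.46 ± 0.15 at day 7 (adjusted p = 0.0302, below the fold threshold), 0.61 ± 0.15 at day 14 (1.52-fold, adjusted p = 0.00514) and 0.72 ± 0.16 at day 21 (1.65-fold, adjusted p = 0.00292). The day 14 call was lost under 9 of 20 alternatives. In 8 of them the log2 fold change was under the threshold: without that replicate (0.39), without day 0 replicate 2 (0.57) or 3 (0.54), among libraries with a mitochondrial share over 3.5% (0.47, adjusted p = 0.0431), with no filter (0.58), with a mean of at least 1 CPM (0.57), with the 2 days alone (0.58) and with limma voom (0.58); the other was glmTreat, which tests against the fold of 1.5 (adjusted p = 0.734). The day 21 call was lost without day 21 replicate 3 (0.58) and with glmTreat (adjusted p = 0.356).

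Itgb1 (ENSMUSG00000025809, chr8:128685654-128733200, plus strand), the common partner of the alpha subunits, was the most abundant of the 10 genes on every day. It was at 1026, 983, 827 and 841 CPM at day 0 and at 1185, 1240.5, 1204 and 1181 CPM at day 7. At day 14 it was at 1614, 1209.7, 1128 and 1179.9 CPM, and at day 21 at 1333, 1170.3 and 1495 CPM. Every library of days 7, 14 and 21 was above every library of day 0. Its log2 fold change was 0.39 ± 0.14 at day 7 (adjusted p = 0.0481), 0.48 ± 0.14 at day 14 (adjusted p = 0.0134) and 0.54 ± 0.15 at day 21 (adjusted p = 0.0119), each below the fold threshold. Genes with no overlap and every later library higher made up 17.6%, 16.8% and 19.4% of all genes at days 7, 14 and 21; of the 10 integrin genes they were 4, 6 and 6. At day 7 these were Itga3, Itga5, Itgb1 and Itgb5, and at days 14 and 21 Itga2 and Itgb3 joined them.

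**Figure D2:**
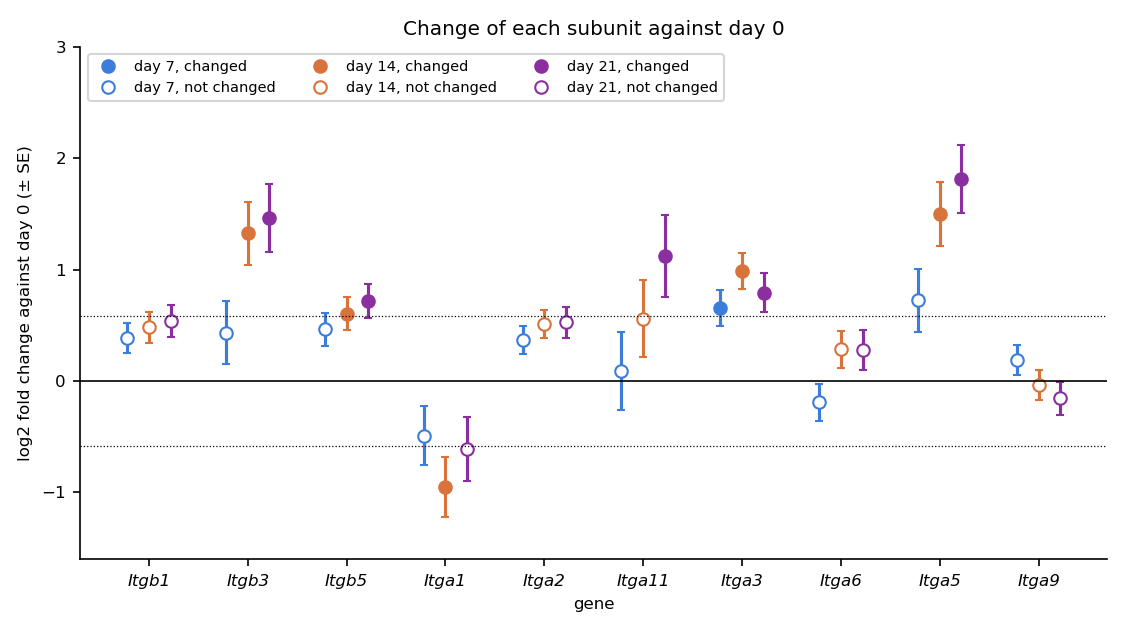
Log2 fold change against day 0 (y axis, ± SE) of the 10 integrin genes (x axis) at days 7, 14 and 21. Filled points passed an adjusted p of 0.05 and a fold change of 1.5 (dotted lines), and open points did not; Itga5 reached 1.82 at day 21, and Itga1, at −0.95, was the only filled point below 0.

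Of the collagen receptor genes, Itga1 was called lower at day 14 and Itga11 higher at day 21, and Itga2 was not called. Itga1 (ENSMUSG00000042284, chr13:114953096-115101964, minus strand), whose product binds basement membrane collagen IV as well as fibrillar collagen, was at 218, 244, 241 and 290.2 CPM at day 0. It was at 154, 126, 197 and 229 CPM at day 7 and at 94.4, 69.9, 182 and 167 CPM at day 14. At day 21 it was at 139, 137 and 212 CPM. All libraries of days 14 and 21 were below all of day 0, with replicates 1 and 2 of day 14 lowest. Genes with no overlap and every later library lower made up 14.4% of all genes at day 14 and 16% at day 21; Itga1 was the 1 of the 10 on both days. Its difference from day 0 on the log2 scale was −0.49 ± 0.27 at day 7 (adjusted p = 0.188), −0.95 ± 0.27 at day 14 (adjusted p = 0.0130) and −0.61 ± 0.29 at day 21 (adjusted p = 0.128), so that day 14 alone passed. With only the 2 days compared in edgeR's test, day 21 passed too (−0.64, adjusted p = 0.0316).

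Endothelial markers (Pecam1, Cdh5, Kdr, Cldn5 and Tek, all above 0 in every library) summed to 2486 to 2986 CPM at day 0, and on the later days in turn to 1814 to 2340.4, 1343 to 2238 and 1659.8 to 2105 CPM. Of these 5, 1, 3 and 1 were lower than at day 0 at days 7, 14 and 21, and their part in the lower Itga1 level was not tested. In bulk tissue, fewer cells of a type and less RNA per cell cannot be told apart. The exons of Itga1 overlap those of Gm49395 on the same strand over 685 bp (3.68% of its exon length), the 1 such overlap among the 10 genes. Among libraries with a mitochondrial share over 3.5%, the log2 fold change of Itga1 at day 14 was −0.94 and the call was lost (adjusted p = 0.0935). The call was also lost with glmTreat (adjusted p = 0.188).

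Itga2 (ENSMUSG00000015533, chr13:114833081-114932100, minus strand), the collagen I receptor subunit of epithelium and platelets, was at 24.7, 23.0, 21.5 and 28.1 CPM at day 0. It was at 26.2, 36.8, 33.6 and 29.0 CPM at day 7, at 39.9, 28.7, 36.7 and 33.4 CPM at day 14, and at 34.3, 36.0 and 34.9 CPM at day 21. Libraries of days 14 and 21 lay above all of day 0, by a narrow margin for day 14 replicate 2. The log2 fold change was 0.37 ± 0.13 at day 7 (adjusted p = 0.0467), 0.51 ± 0.13 at day 14 (adjusted p = 0.00650) and 0.53 ± 0.14 at day 21 (adjusted p = 0.00915), below the fold threshold each time.

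Itga11 (ENSMUSG00000032243, chr9:62677826-62783982, plus strand), a fibrillar collagen receptor subunit known from activated fibroblasts, was the rarest of the 10, with 24 to 56 counts per library at day 0. It was at 1.55, 2.96, 3.24 and 3.12 CPM at day 0, and at 3.23, 2.90, 2.42 and 3.03 CPM at day 7. At day 14 it was at 6.32, 2.81, 3.60 and 3.32 CPM, and at day 21 at 8.53, 2.68 and 6.65 CPM. Replicate 1 of day 14 and replicates 1 and 3 of day 21 stood above all other libraries, and day 21 replicate 2 lay within the day 0 range. Against day 0 its log2 fold change was 0.09 ± 0.35 at day 7 (adjusted p = 0.879), 0.56 ± 0.35 at day 14 (adjusted p = 0.234) and 1.12 ± 0.37 at day 21 (adjusted p = 0.0303). The day 21 call was lost under 9 of 18 alternatives, among them leaving out day 21 replicate 1 (log2 fold change 0.74, adjusted p = 0.198) or replicate 3 (0.99, 0.103), or day 0 replicate 1 (0.89, 0.0927), replicate 2 (1.13, 0.0559) or replicate 4 (1.16, 0.0510).

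Among the collagen-binding alpha subunits, levels were also set side by side per kilobase of exon. On that scale Itga1 held 77.2% ± 0.997 (SD, n = 4) of the summed level of Itga1, Itga2 and Itga11 at day 0, 64.9% ± 7.69 (n = 4) at day 7, 53.3% ± 10.9 (n = 4) at day 14 and 58.4% ± 5.78 (n = 3) at day 21. The day 0 range of 75.7% to 78.0% lay above every library of the later days. Itga2 held 19.8% ± 1.78 at day 0 and 40.3% ± 8.56 at day 14, and Itga11 held 3.05% ± 0.797 and 6.48% ± 2.76. The summed level itself was 17.3 ± 2.00 CPM per kilobase at day 0, 12.5 ± 3.21 at day 14 and 14.8 ± 2.47 at day 21. The shares and the sum depend on the gene length used. With the longest annotated transcript in place of all exons, Itga1 was at 22.6, Itga2 at 3.42 and Itga11 at 0.547 at day 0. On that scale they were at 11.7, 4.88 and 0.808 at day 14.

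Of the laminin receptor genes, Itga3 rose from day 7 on and Itga6 did not pass the test. Itga3 (ENSMUSG00000001507, chr11:95044474-95076801, minus strand), which encodes the alpha subunit of a laminin receptor of epithelium, was at 345, 280.4, 239 and 292 CPM at day 0. It was at 451, 491, 442 and 433 CPM at day 7 and at 625, 696, 481 and 493 CPM at day 14. At day 21 it was at 387, 625 and 491 CPM. No later library overlapped day 0, day 7 was the tightest group, and replicates 1 and 2 of day 14 stood above replicates 3 and 4. Its difference from day 0 on the log2 scale was 0.65 ± 0.16 at day 7 (1.57-fold, adjusted p = 0.00921), 0.99 ± 0.16 at day 14 (1.99-fold, adjusted p = 0.000317) and 0.79 ± 0.17 at day 21 (1.73-fold, adjusted p = 0.00292).

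The day 7 call of Itga3 was lost without day 0 replicate 3 (log2 fold change 0.55, adjusted p = 0.0383), when the mitochondrial share entered the fit (0.48, 0.104), and among libraries with a share under 2.5%, where the fold was below the threshold (0.52, 0.0159). Its day 21 call was lost without day 21 replicate 2 (0.56, 0.0316). With glmTreat both calls were lost (adjusted p = 0.730 at day 7 and 0.234 at day 21). Alveolar type 1 markers (Ager, Hopx, Rtkn2 and Aqp5) summed to 2698 to 4039 CPM at day 0, and on the later days in turn to 2831 to 3371, 2569.9 to 4442 and 1370.4 to 3335 CPM, with 1, 0 and 2 of the 4 lower at days 7, 14 and 21 and none higher. Alveolar type 2 markers (Sftpc, Sftpb, Lamp3 and Abca3) summed to 21362 to 31109 CPM at day 0, and on the later days in turn to 14127 to 21688, 6009.7 to 17639 and 3698 to 7889 CPM, with 0, 2 and 4 of the 4 lower and none higher. Markers of basal and transitional epithelium (Krt5, Krt8, Krt17, Krt19 and Trp63) summed to 334 to 439.9 CPM at day 0, and to 743 to 1140.5 at day 7, 392 to 778 at day 14 and 444 to 639.9 at day 21. Of these 5, 3 were higher at day 7 and 1 at each of days 14 and 21, while Krt5 and Krt17 were at 0 in every day 0 library. Airway markers (Scgb1a1 and Foxj1) summed to 24724 to 31365 CPM at day 0. On the later days in turn they summed to 8174 to 10465, 2717 to 6836 and 1360 to 4914 CPM. At days 7, 14 and 21, 1, 2 and 1 of these 2 were lower and none higher. The part of any of these cells in the Itga3 level was not tested.

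Itga6 (ENSMUSG00000027111, chr2:71745616-71858416, plus strand), the other laminin receptor subunit, which also joins beta 4 in hemidesmosomes, was at 197, 232, 183 and 175 CPM at day 0. It was at 146, 192, 155 and 195 CPM at day 7, at 210.0, 284, 229.6 and 234 CPM at day 14, and at 176, 319 and 220.2 CPM at day 21. Each later day overlapped day 0, while every day 14 library was above every day 7 library, as was so for 7.9% of all genes. The log2 fold change against day 0 was −0.19 ± 0.17 at day 7 (adjusted p = 0.428), 0.28 ± 0.17 at day 14 (adjusted p = 0.211) and 0.28 ± 0.18 at day 21 (adjusted p = 0.269), or −0.03 without day 21 replicate 2. Per kilobase, Itga3 held 69.7% ± 3.84 of the summed Itga3 and Itga6 level at day 0, with libraries from 65.7% to 73.4%, and 80.7% ± 2.25 at day 7, from 77.8% to 83.0%. At day 14 it held 78.9% ± 2.67 and at day 21 77.0% ± 1.28, from 75.6% to 77.9%. These shares depend on the gene length used. With the longest annotated transcript, Itga3 was at 59.5 and Itga6 at 45.6 CPM per kilobase at day 0.

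The fibronectin receptor gene Itga5 was called higher at days 14 and 21. Itga5 (ENSMUSG00000000555, chr15:103344286-103366763, minus strand), whose product binds the RGD site of fibronectin and helps assemble fibronectin fibrils, was at 55.7, 60.8, 80.8 and 80.0 CPM at day 0. It was at 104, 139.5, 102 and 113 CPM at day 7 and at 327, 187, 145 and 124 CPM at day 14. At day 21 it was at 369.6, 176 and 187 CPM. No later library overlapped day 0, and replicate 1 of day 14 and replicate 1 of day 21 stood far above the rest of their days. The log2 fold change was 0.72 ± 0.28 at day 7 (1.65-fold, adjusted p = 0.0736), 1.5 ± 0.29 at day 14 (2.82-fold, adjusted p = 0.00112) and 1.82 ± 0.31 at day 21 (3.52-fold, adjusted p = 0.000463). Among libraries with a mitochondrial share under 2.5%, the day 7 difference was 0.96 and passed (adjusted p = 0.00349).

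Without day 14 replicate 1 the log2 fold change of Itga5 at day 14 was 1.11 (adjusted p = 0.00327), and among libraries with a mitochondrial share over 3.5%, which that replicate is not part of, it was 0.91 (adjusted p = 0.0157). Without day 21 replicate 1 that at day 21 was 1.35 (adjusted p = 0.00419). With all libraries Itga5 had the highest log2 fold change of the 10 on both days, but Itgb3 was above it at day 14 without day 0 replicate 1 (1.45 against 1.38), day 0 replicate 2 (1.47 against 1.41) or day 14 replicate 1 (1.15 against 1.11) and among libraries with a mitochondrial share over 3.5% (1.72 against 0.91), and at day 21 without day 21 replicate 1 (1.42 against 1.35). Day 14 replicate 1 and day 21 replicate 1 also had the highest sums of fibroblast markers (Pdgfra, Col1a1, Dcn, Lum and Tcf21, all above 0 in every library), at 5724 and 3901 CPM, against 705 to 1031 at day 0, 1869 to 2475 at day 7, 1441 to 2009.9 in the other day 14 libraries and 1977 and 3465 in the other day 21 libraries. Of these 5 markers, Col1a1 and Lum were higher on all 3 later days, and Tcf21 was lower at days 14 and 21. The activated fibroblast and myofibroblast markers Acta2, Tagln, Cthrc1, Postn and Tnc summed to 281 to 326 CPM at day 0, then to 681 to 859, 642 to 2015 and 625 to 1615 on the later days, with 2, 4 and 4 of the 5 higher. Other marker sums also stood apart in day 14 replicate 1 and day 21 replicate 1. Those of macrophages, at 1094 and 957 CPM, and of smooth muscle (Myh11, Cnn1, Des and Actg2), at 465 and 486 CPM, were the highest of their days, and those of alveolar type 2 cells, at 6009.7 and 3698 CPM, the lowest. Heart muscle markers (Myh6, Myl7, Nppa and Tnnt2) summed to 24.6 and 540.2 CPM in these libraries, against 5.07 to 11.2 in the other day 14 libraries and 4.84 and 10.4 in the other day 21 libraries; they were at 2.33 to 154 CPM at day 0 and reached 435 in day 7 replicate 4. The part of any of these cells in the Itga5 level was not tested.

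**Figure D3:**
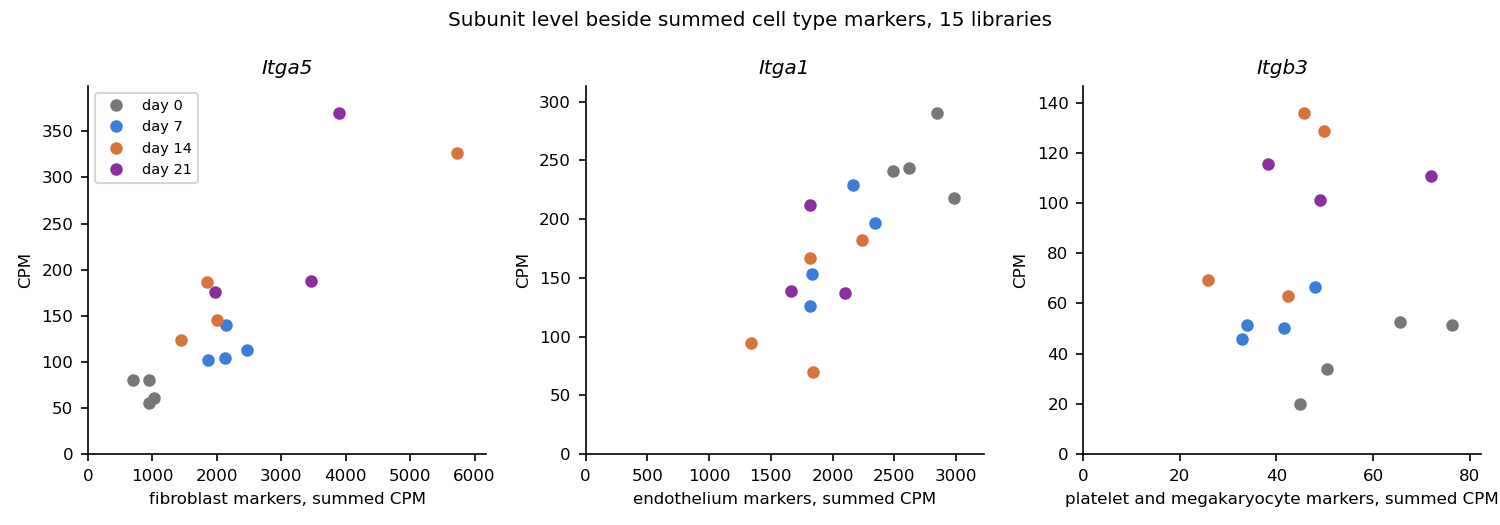
CPM (y axis) of Itga5, Itga1 and Itgb3 in each of the 15 libraries, beside the summed CPM (x axis) of fibroblast, endothelium, and platelet and megakaryocyte markers, with points coloured by day. Day 14 replicate 1 and day 21 replicate 1 are the 2 highest points of the Itga5 panel, at 327 and 369.6 CPM. Itgb3 at days 14 and 21 lies above day 0. Platelet markers summed to 44.9 to 76.3 CPM at day 0, 25.8 to 49.8 at day 14 and 38.4 to 72.0 at day 21. The part of the marked cells in these levels was not tested.

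Windows around the start sites are shown for Itga5, for the gene called higher on all 3 later days and for the gene that fell, since these carry the opposite directions. RefSeq windows of 300 bases on build GRCm38.p6, from 250 before to 50 after the start, were given for 8 of the 10 genes, Itga3 having 2; Itga6 and Itgb3 had none. Capitals mark the GC box GGGCGG and the SMAD box CAGAC, searched on both strands, and each line runs 5′ to 3′ on the strand of the gene. The Itga5 window is chr15:103366742-103367041, minus strand, that of Itga3 is chr11:95076665-95076964, minus strand, and that of Itga1 is chr13:115101915-115102214, minus strand.
Itga5: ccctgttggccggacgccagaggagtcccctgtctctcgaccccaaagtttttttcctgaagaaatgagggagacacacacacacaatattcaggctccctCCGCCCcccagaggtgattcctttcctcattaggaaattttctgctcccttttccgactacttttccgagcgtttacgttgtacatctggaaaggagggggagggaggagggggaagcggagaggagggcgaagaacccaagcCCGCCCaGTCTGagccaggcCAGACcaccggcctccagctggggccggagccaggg
Itga3: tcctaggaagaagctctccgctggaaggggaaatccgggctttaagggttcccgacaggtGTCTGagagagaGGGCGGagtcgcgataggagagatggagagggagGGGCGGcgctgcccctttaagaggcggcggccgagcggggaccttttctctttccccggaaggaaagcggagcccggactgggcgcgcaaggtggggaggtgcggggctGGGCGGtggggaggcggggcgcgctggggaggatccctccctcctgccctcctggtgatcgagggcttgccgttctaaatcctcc
Itga1: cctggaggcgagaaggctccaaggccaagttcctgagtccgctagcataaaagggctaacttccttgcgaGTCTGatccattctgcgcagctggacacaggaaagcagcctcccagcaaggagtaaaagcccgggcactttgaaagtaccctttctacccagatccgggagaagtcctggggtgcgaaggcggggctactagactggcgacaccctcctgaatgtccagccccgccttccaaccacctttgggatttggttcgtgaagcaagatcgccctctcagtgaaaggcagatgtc
The Itga5 window held 2 GC boxes and 2 SMAD boxes, with a GC content of 58.7%. That of Itga3 held 3 GC boxes and 1 SMAD box, with a GC content of 66.7%, while that of Itga1 held no GC box and 1 SMAD box, with 56.7%. Of all 32851 windows of this length, 35.7% held a GC box and 49.6% a SMAD box, against 6 and 6 of the 9 integrin windows. None of the 9 held the TATA box TATAAA, which 13.6% of all windows held. The Itga9 window, chr9:118711442-118711741, lies inside the gene as GENCODE annotates it, downstream of its annotated start. An AP-1 site, TGACTCA, was found in 1 of the 9, that of Itga9, where its first 2 letters are also the last 2 of a SMAD box, against 5.2% of all windows. A TEAD site, CATTCC, was found in 1, that of Itgb1, against 14.7% of all. These matches describe letters only, and no binding was measured here.

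Itga9 (ENSMUSG00000039115, chr9:118606690-118901003, plus strand), whose product binds tenascin-C, osteopontin and VCAM-1, did not pass the test on any day. It was at 157, 155, 113 and 145 CPM at day 0 and at 146, 171, 173 and 159 CPM at day 7. At day 14 it was at 136, 139.6, 133 and 146 CPM, and at day 21 at 95.9, 153 and 135 CPM. All later days overlapped day 0. Against day 0 its log2 fold change was 0.19 ± 0.13 at day 7 (adjusted p = 0.327), −0.04 ± 0.13 at day 14 (adjusted p = 0.855) and −0.16 ± 0.15 at day 21 (adjusted p = 0.451).

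Compared per kilobase of exon, the order of the levels at day 0 was Itgb1 (225 ± 24.5 CPM per kilobase, SD, n = 4), Itga3 (50.6 ± 7.67), Itgb5 (39.2 ± 3.87), Itga6 (21.8 ± 2.78), Itga9 (18.5 ± 2.61), Itga5 (14.1 ± 2.63), Itga1 (13.3 ± 1.63), Itgb3 (6.70 ± 2.64), Itga2 (3.41 ± 0.394) and Itga11 (0.530 ± 0.153). Ranges overlapped between the neighbours Itga3 and Itgb5, Itga6 and Itga9, Itga9 and Itga5, Itga5 and Itga1, and Itgb3 and Itga2, and not between the other neighbours. By day 14 Itga5 had moved up to 39.7 ± 18.5 CPM per kilobase, behind Itgb1, Itga3 and Itgb5, and Itgb3, at 16.8 ± 6.51, had passed Itga1, at 6.90 ± 2.94. At day 21 Itga5 was at 49.5 ± 22 and Itgb3 at 18.5 ± 1.24 (n = 3). With the longest annotated transcript in place of all exons, Itga6 at day 0 was at 45.6 and stood above Itgb5, at 42.5, and Itga1 was at 22.6 and stood above Itga9, at 20.3. On that scale Itga5 stood behind Itga6 as well at day 14, at 44.3 against 55.6, and at day 21 both were at 55.3.

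Seen as shares, Itga5 made up 11.6% ± 2.81 of the summed alpha subunit level per kilobase at day 0, and 14.7% ± 1.35, 19.6% ± 6.41 and 25.7% ± 12.3 on the later days. Day 0 libraries ran from 8.73% to 14.9% and day 21 libraries from 16.7% to 39.7%. Itga3 held 41.3% ± 3.77 at day 0 and 50.9% ± 3.60 at day 14, and Itga9 went from 15.1% ± 1.22 to 9.31% ± 1.55. Among the 3 beta subunits, Itgb3 held 2.42% ± 0.754 at day 0 and 4.53% ± 0.244 at day 21, while Itgb1 held 83.1% ± 0.948 and 79.7% ± 0.353. The summed alpha level was 122 ± 8.60 CPM per kilobase at day 0 and 197 ± 30.2 at day 14, and the summed beta level was 271 ± 29.9 and 391 ± 73.3. These shares and sums used all exons and were not worked out with the longest transcript.

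**Figure D4:**
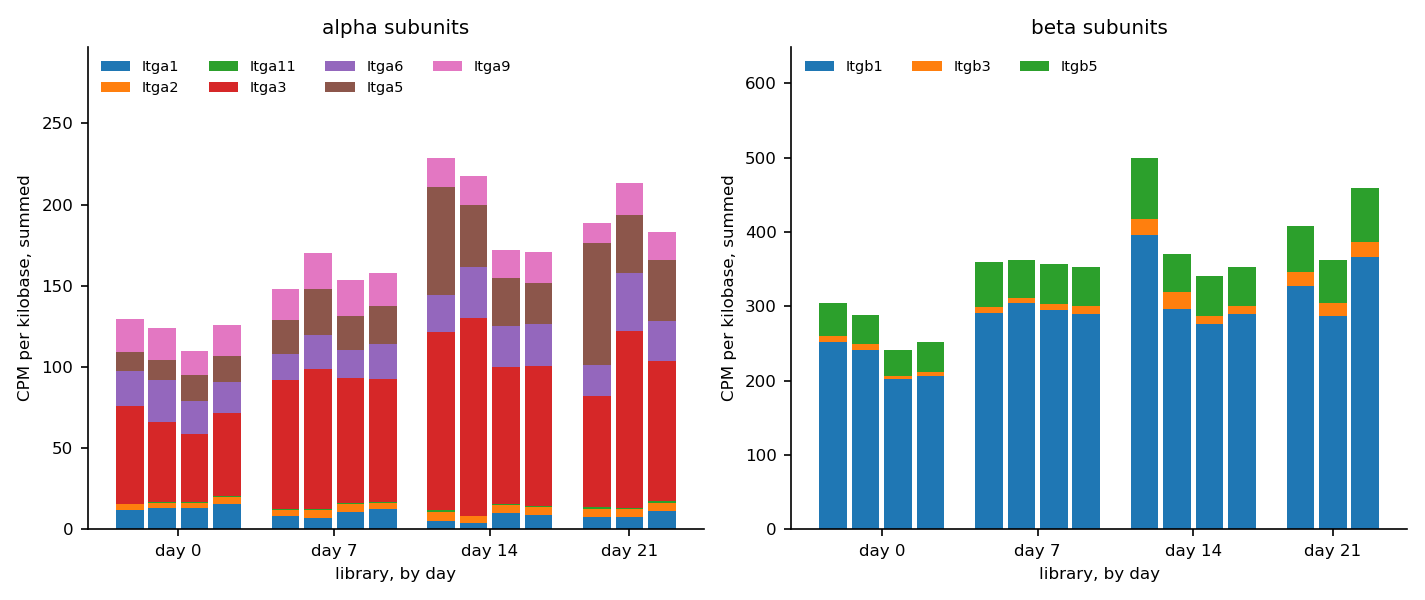
Summed CPM per kilobase of exon (y axis) of the 7 alpha and the 3 beta subunit genes in each library, with 1 bar per library grouped by day (x axis) and colours for genes. The Itga5 segment grows from 14.1 on average at day 0 to 49.5 at day 21, and Itgb1 makes up most of every beta bar.

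Between the later days, few of the genes differed. At day 14 against day 7, 0 of the 10 were called changed, against 6% of all genes. Itgb3 had a log2 fold change of 0.89 there (SE 0.28, adjusted p = 0.0676) and Itga5 one of 0.77 (SE 0.28, adjusted p = 0.105). At day 21 against day 7, 2 were higher, against 5.2% of all genes higher and 9.54% changed: Itga5 by 1.09 ± 0.30 on the log2 scale (2.13-fold, adjusted p = 0.0293) and Itgb3 by 1.03 ± 0.30 (2.04-fold, adjusted p = 0.0371). For both, every day 21 library was above every day 7 library, as was so for 14.6% of all genes. Each call was lost under 7 of 18 alternatives. For Itga5 these held leaving out day 21 replicate 1 (log2 fold change 0.64, adjusted p = 0.203) or day 7 replicate 1, 3 or 4 (adjusted p of 0.0626 to 0.0792) and the mitochondrial share in the fit (1.16, adjusted p = 0.0882), and for Itgb3 leaving out day 7 replicate 1, 2 or 3 or any day 21 library (0.0737 to 0.0951).

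At day 21 against day 14, 0 of the 10 genes and 0% of all genes were changed in edgeR's test. At an unadjusted p under 0.05, 1714 of the 17457 genes tested and 0 of these 10 differed. With only 10 genes, this is not read as a difference from all genes. DESeq2 called 106 genes, 0 of them among the 10. Log2 differences were 0.57 for Itga11 (± 0.36, adjusted p = 0.638), and smaller with all libraries for Itga1 (0.34 ± 0.29) and Itga5 (0.32 ± 0.30, or −0.12 without day 21 replicate 1).

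Other integrin subunits, ligands and adhesion adaptors were looked at in 3 lists that had been drawn up from textbook roles. Of 17 other integrin subunit genes, all tested, 8 were higher on each later day, while 0, 4 and 3 were lower at days 7, 14 and 21. Of all genes, 8.78%, 12% and 12.4% were higher and 7.36%, 11.2% and 10.1% lower. The 8 that were higher at day 14 were Itga7, Itgav, Itgam, Itgax, Itgb2, Itgb4, Itgb6 and Itgb8. Itgav, the alpha v partner of beta 3 and beta 5, was at 64.0 ± 17.1 CPM at day 0 and 139 ± 31.1 at day 14 (SD, n = 4 each), and was higher by 0.98 ± 0.18 on the log2 scale at day 7 (adjusted p = 0.00165), by 1.12 ± 0.18 at day 14 (adjusted p = 0.000293) and by 1.16 ± 0.19 at day 21 (adjusted p = 0.000411). Itgb6, the epithelial beta subunit of a TGF-beta activating receptor, was 1.82 ± 0.28 higher on the log2 scale at day 14 (adjusted p = 0.000211). Itga8, the nephronectin receptor subunit, fell by 1.49 on the log2 scale (SE 0.26, adjusted p = 0.000500), from 228 ± 30.1 to 81.5 ± 29.2 CPM. The median of the 17 was 0.59 at day 14 against 0.02 for all genes.

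Ligand genes made up the next list. Of 33 genes for collagens, laminins, fibronectin and other integrin ligands, 17, 21 and 23 were higher and 0, 3 and 3 lower at days 7, 14 and 21, against 8.78%, 12% and 12.4% of all genes higher. The median log2 fold change of the 33 was 0.61, 0.89 and 1.01, next to 0.01, 0.02 and 0.02 for all genes. Fn1, fibronectin, the ligand of alpha 5 beta 1, went from 412 ± 81.1 CPM at day 0 to 2215 ± 275, 4142 ± 2935 and 5139.6 ± 1281 CPM on the later days, 3.33 ± 0.37 above day 0 on the log2 scale by day 14 (adjusted p = 1.12e-05) and 2.68 without day 14 replicate 1. Tnc, tenascin-C, a ligand of alpha 9 beta 1, was 5.26 ± 0.50 higher on the log2 scale at day 14 (adjusted p = 3.96e-06), or 4.60 without that replicate, next to −0.04 for Itga9. Spp1, osteopontin, was 5.15 ± 0.46 higher (adjusted p = 2.33e-06). Col4a1, a collagen IV chain, was 1.5 ± 0.16 higher (adjusted p = 6.90e-06), next to −0.95 for Itga1. Npnt, nephronectin, was among the 3 that fell, by 0.84 on the log2 scale (SE 0.20, adjusted p = 0.00497).

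The last list held the intracellular adaptors. Of 30 adhesion adaptor genes, 29 were tested. Ilk was in the table but not among the genes that passed the filter. Why was not looked into, so its expression in these lungs is not described. At day 7, 2 were higher and 3 lower, at day 14, 3 higher and 4 lower, and at day 21, 3 higher and 2 lower, so that 5, 7 and 5 of the 29 were changed, against 16.1%, 23.1% and 22.5% of all genes. Actn1, which crosslinks actin at adhesions, was 1.04 ± 0.17 higher on the log2 scale at day 14 (adjusted p = 0.000322), and Flna, a filamin that binds beta subunit tails, 0.86 ± 0.14 higher (adjusted p = 0.000258). Tns2, a tensin, fell by 1.09 (SE 0.17, adjusted p = 0.000252) and Lims2, which encodes a PINCH adaptor, by 1.14 (SE 0.21, adjusted p = 0.000819). The median of the 29 was 0.04 at day 14 against 0.02 for all genes.

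Genes whose pattern over the 15 libraries was most like that of Itga5 and of Itga1, the highest and the lowest of the 10 at day 14 with all libraries, were ranked by the root mean square difference of centred log2 CPM among 11812 genes with a mean of at least 5 CPM. For Itga5 they were Ndrg4 (0.20), Loxl3 (0.23), Srpx2 (0.23), Pth1r (0.25) and Adam8 (0.25), with a median over all genes of 0.80. Loxl3, a lysyl oxidase family member, went from 10.6 CPM at day 0 to 31.9 at day 14 and 45.3 at day 21, and Adam8, a membrane metalloprotease, from 36.3 to 98.4 and 136. For Itga1 they were Pitpnc1 (0.20), Sema3c (0.23), Pla2r1 (0.23), Pdgfd (0.24) and Hr (0.24), with a median over all genes of 0.61. Sema3c, a secreted semaphorin, went from 425 CPM at day 0 to 257 at day 14 and 283 at day 21.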

How the data were processed

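Whole-lung libraries of 4 time points were compared. The authors trimmed reads with TrimGalore, aligned them to GRCm38 (mm10) with HISAT2 2.1.0, left out multi-mapped reads and counted reads per Ensembl gene with HTSeq 0.6.0; the deposited values are raw counts with no normalization. The annotation release and strand setting were not given in the sources used here. Symbols, positions and exon lengths came from GENCODE M21, which matched 33267 of the 33340 identifiers.

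Groups were taken from the sample titles. Counts were filtered with filterByExpr, scaled with TMM factors and tested with glmQLFTest in edgeR 4.0.16 (R 4.3.3), with day as the only term, all 15 libraries in 1 fit and two-sided tests. The thresholds were those of the study, and p-values were adjusted over all 17457 genes. CPM per kilobase is CPM divided by the exon union in kilobases. The steps were checked on simulated data. Total counts of 15652008 to 18020661 per library set the precision, with a common biological coefficient of variation of 22.8%, and intervals cover spread between libraries only.

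The 10 members, the lists, the markers and the rule for named genes (all members, list genes and the 5 most alike genes of the highest and the lowest member at day 14) were chosen with earlier results of these data known. The list genes named with values were picked after their values were seen. Alternatives were DESeq2 1.42.0, RLE and total count scaling, no filter or a mean of at least 1 CPM, the 2 days alone, limma 3.58.1 voom, a replicate block, no fold threshold, glmTreat, the log2 mitochondrial share as a covariate, subsets by that share, each library left out, and the longest transcript as gene length. These were run on the list counts and named list genes too, a step added after seeing the data.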

Additional observations from a re-analysis of the deposited data

Results flagged for a closer look

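Of the 30 groups of 4 libraries (10 genes at days 0, 7 and 14), 3 held a library whose gap to its nearest neighbour passed Dixon's critical value as a share of the group's range, and chance alone flags about 5% of such groups. Itgb5 in day 14 replicate 1 was at 291 CPM against 182 to 191 in the other 3, and Itgb1 in the same library was at 1614 CPM against 1128 to 1209.7. Itga11 in day 0 replicate 1 was at 1.55 CPM against 2.96 to 3.24. Day 14 replicate 1 also had the highest fibroblast marker sum of its day, 5724 CPM, and its lowest mitochondrial share, 2.1%; their part in these values was not tested.

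Itga5 and Itgb3 were flagged because their effects at 2 time points differed in a direct test. At day 21 against day 7 the log2 fold change was 1.09 for Itga5 and 1.03 for Itgb3. In both cases all 3 day 21 libraries were above all 4 of day 7, as was so for 14.6% of all genes. Each call was lost under 7 of 18 alternatives.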

How the results depend on the processing

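Of 580 fold changes of the members against day 0 under alternatives, 537 kept direction and call, 28 lost the call, 11 gained it and 4 changed sign; between later days these were 509, 14, 6 and 21 of 550. Causes were not tested. At day 7 (1 member changed) the count was 2 with no filter or the 2 days alone, 4 with no fold threshold, 0 with glmTreat or the mitochondrial covariate, and 0 to 1 leaving out 1 library. At day 14 (5) it was 3 with glmTreat and 3 among libraries with a share over 3.5%, and 4 to 5 leaving out 1. At day 21 (5) it was 2 with glmTreat and 3 to 5 leaving out 1, with 3 without day 21 replicate 3. At day 14 against day 7 (0) DESeq2, no filter and the covariate each gave 1, Itgb3. At day 21 against day 7 (2) the replicate block gave 1, glmTreat 0, the covariate 1, and leaving out 1 library 0 to 2.

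Some fold changes that were not called changed sign. Itga9 at day 14 was 0.0019 with the covariate and 0.10 among libraries with a share over 3.5%. Itga6 at day 21 against day 14 was 0.0070 with total count scaling and 0.0015 with a mean of at least 1 CPM, and Itga2 there −0.0026 with no filter. Leaving out 1 library gave −0.13 to 0.16 for Itga11 at day 7 and −0.028 to 0.42 for Itga6 at day 21. At day 14 against day 7 it gave −0.034 to 0.15 for Itgb1 and −0.047 to 0.21 for Itgb5, and at day 21 against day 7 −0.38 to 0.032 for Itga1 and −0.072 to 0.28 for Itga3. At day 21 against day 14 it gave −0.076 to 0.079 for Itga2, −0.12 to 0.67 for Itga5, −0.29 to 0.16 for Itga6, −0.28 to 0.042 for Itga9, −0.056 to 0.17 for Itgb1, −0.027 to 0.32 for Itgb3 and −0.0053 to 0.29 for Itgb5. For Itga2b at day 21 against day 0 the range was −0.32 to 0.077.

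Over all genes, glmTreat called 703, 1755 and 1754 genes at days 7, 14 and 21 against 2818, 4040 and 3924, with 4365 at day 7 for no fold threshold and 1269 for the covariate. At day 14 against day 7 (1048), DESeq2 called 1641, glmTreat 14, the covariate 218 and leaving out 1 library 340 to 1300; at day 21 against day 7 (1665), glmTreat 176, the covariate 942 and leaving out 1 library 966 to 1822; at day 21 against day 14 (0), no filter 37 and leaving out 1 library 0 to 127. Of the other integrin subunits at days 7, 14 and 21 (8, 12 and 11), glmTreat called 1, 6 and 5, and of the adaptors (5, 7 and 5) 0, 3 and 2. With the covariate the day 7 counts were 3 and 2 (0 adaptors higher), the other integrin subunits at day 14 were 7 among libraries with a share over 3.5%, and the adaptors at day 7 were 8 with no fold threshold. Libraries were not treated as pairs, since not every same-numbered pair had a correlation of deviations over 0.1: it ran from −0.24 to 0.40 over 21 such pairs (median 0.04, 8 over 0.1), and from −0.33 to 0.26 over 63 pairs with other numbers (median −0.03, 13 over 0.1), and 7 of 15 libraries correlated best with their own number. With the replicate number as a block, Itga11 at day 21 had an adjusted p of 0.0665, Itga5 at day 21 against day 7 one of 0.0515, and Itga1 there a log2 fold change of 0.0074. Itga11 had 24 to 138 counts per library, the fewest of the 10.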
